A study of Mus musculus with 2 samples.

Results

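Kupffer cells are the macrophages that reside in the sinusoids of the liver. They take up senescent red cells, lipoproteins and gut-derived particles from portal blood, and they carry genes that few other macrophages use, such as *Clec4f*, a C-type lectin gene, and *Vsig4*, a complement receptor gene. They can present antigen on MHC class II, and interferon-γ, which T and NK cells secrete, raises antigen presentation and chemokine genes in macrophages. Here Kupffer cells were picked out of single-cell RNA-Seq libraries of tumor-bearing mouse liver by a marker gate. A cell was selected on at least 1 *Clec4f* UMI (a UMI counts 1 captured transcript), UMIs of at least 4 of the 8 markers *Clec4f*, *Vsig4*, *Timd4*, *Cd5l*, *Marco*, *Fcna*, *C6* and *Folr2*, and at least 3 UMIs summed over *C1qa* and *C1qb*. Of 31891 cells in which 500 to 5000 genes were detected and mitochondrial transcripts made up no more than 10% of the UMIs, 2978 passed the gate.

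The libraries came from mice whose cholangiocarcinomas (CCAs) had been induced by hydrodynamic tail vein injection of plasmids for NICD, the active intracellular part of Notch, and for myr-AKT, an AKT held at the membrane. In all animals of both groups, doxycycline-inducible shRNAs against *Yap1* and *Wwtr1* (together shYT), expressed throughout the body, were switched on from day 25, so Kupffer cells carried them as well. The shYT_PBS group received PBS and the shYT_antiPD1 group the anti-PD-1 antibody RMP1-14 (days 26, 29 and 32), with harvest at day 33. There was 1 library per group, so no difference below has a replicate check, no test was run, and how far it exceeds the spread between animals is unknown. The study gives several animals per group for this experiment, but the counts used here do not tie barcodes to animals, the labels do not give the shYT line, and an effect of the shRNAs themselves was not compared.

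The deposited counts held 121713441 UMIs in 19397 barcodes with PBS and 100807037 in 19451 with anti-PD-1, and the libraries shared 219 barcodes, 2 of them gated in both. The median gated cell had 8975 UMIs and 3074 detected genes with PBS and 9423 UMIs and 2941 genes with anti-PD-1. The libraries differed in the sex of their cells. Of the gated PBS cells, 492 held *Xist* (the inactive X transcript) and no Y-linked UMI, 149 the reverse and 34 both. With anti-PD-1, 1319 gated cells held Y-linked UMIs without *Xist* and 2 held both. Treatment, sex and library cannot be told apart from these pooled values, so results were also taken in cells that held Y-linked UMIs but not *Xist* (below, cells with a Y-linked UMI), of which PBS had 149.

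The gated cells were 979 of 15531 cells with PBS (6.30%, exact binomial 95% interval 5.93% to 6.70%) and 1999 of 16360 with anti-PD-1 (12.2%, 11.7% to 12.7%). These intervals, like all others below, cover counting error only. The difference was 5.92 percentage points, and 3.26 with the gate read after thinning each cell to 1000 UMIs. Leaving out cells with at least 2 UMIs of any other cell type's markers left 116 PBS and 112 anti-PD-1 cells and a difference of −0.062 points. Neutrophil genes alone marked 42.5% and 86.6% of the gated cells, and the source of those UMIs was not tested. The tiers of the gate are described by the genes that define them. Cells with *Clec4f* and C1q that had exactly 4 markers, just inside the gate, numbered 84 and 376, and those with exactly 3, just outside it, 145 and 606. In anti-PD-1 cells with 4 markers the median was 2 *Clec4f* UMIs and 6 C1q UMIs, against 3 and 31 in PBS cells with 4 markers. In cells with all 8 markers it was 66 and 151 with anti-PD-1, and 73 and 146 with PBS. *Clec4f* UMIs outside macrophages also differed between the libraries. T cells (at least 3 UMIs of T cell genes and no C1q UMI) should lack *Clec4f*, yet 7.56% of them held a *Clec4f* UMI with PBS and 25.7% with anti-PD-1, at medians of 2605 and 2970 UMIs per cell. Thinned to 1000 UMIs per cell, the shares were 3.04% and 9.36%. Whether these UMIs were free RNA, doublets or swapped barcodes was not tested.

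Some cells low in the gate carried genes of another macrophage. *Prg4*, a lubricin gene, *Fn1*, the fibronectin gene, *Slpi*, a protease inhibitor gene, and *Alox15*, a lipoxygenase gene, are known from macrophages of the peritoneal cavity. In anti-PD-1 cells with 5 markers *Prg4* was at 1249 CPM (its UMIs over all UMIs of those cells, on the usual CPM scale) and *Slpi* at 3349 CPM, and in those with 8 markers at 5.41 and 72.1 CPM. With 7 markers, a tier that the core gate below admits, they were at 77.1 and 877 CPM. PBS cells with 7 markers had 2.15 and 23.6 CPM. In PBS cells *Prg4* was at 349 CPM with 5 markers, 1.16 CPM with 6 and 1.40 CPM with 8. *Slpi* was still at 13.4 and 248 CPM in the core gate described next, the highest ratio there (3.78) among genes with a mean of at least 50 CPM, predicted, ribosomal and sex-linked genes aside. A core gate was therefore added after these values had been seen, with at least 7 of the 8 markers and at least 5 *Clec4f* UMIs. It held 665 PBS cells (4.28%, 3.97% to 4.61%) and 1184 anti-PD-1 cells (7.24%, 6.84% to 7.64%). Results are given for the gate, and for the core gate beside them.

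**Figure D1:**
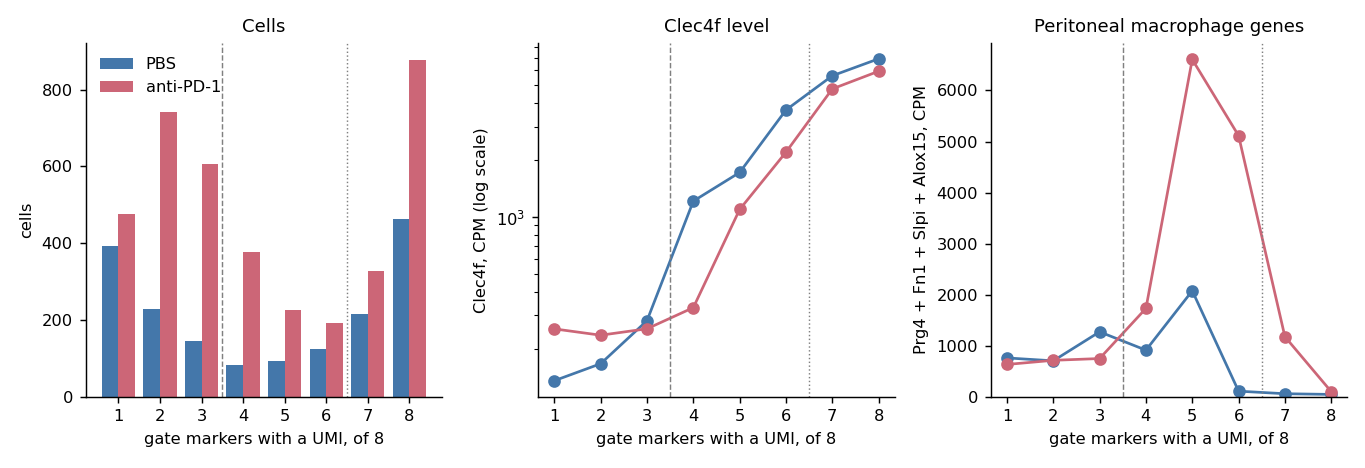
Kept cells with a *Clec4f* UMI and at least 3 C1q UMIs, by the number of the 8 gate markers they hold (x axis). The panels plot the number of cells, the *Clec4f* level in CPM on a log axis, and the summed level of *Prg4*, *Fn1*, *Slpi* and *Alox15* in CPM, in the PBS (blue) and anti-PD-1 (red) library. The dashed line marks the gate and the dotted line the marker number of the core gate. The 4 peritoneal macrophage genes peak at 5 markers and are low at 8.

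The levels of the gate markers were used to select the cells and are given as a description. *Clec4f* (chromosome 6, 83644542 to 83656187, reverse strand, GRCm38) was at 5597 CPM (exact Poisson interval 5548 to 5647) with PBS and 4192 CPM (4163 to 4220) with anti-PD-1. *Vsig4* was at 3278 CPM (3240 to 3316) and 1813 CPM (1795 to 1832), and in the core gate at 3709 and 2474 CPM. *Timd4*, a phosphatidylserine receptor gene of embryo-derived Kupffer cells, was level, with 428 CPM in both groups. In the core gate 95.04% of PBS and 97.3% of anti-PD-1 cells held a *Timd4* UMI.

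Differences between the groups are given as log2 ratios of anti-PD-1 over PBS after 5 CPM were added to both levels. Over the 8356 genes with a mean of at least 10 CPM in the gate the median was −0.11, to which each ratio is to be compared, and 5535 genes were below 0. Counts of lower genes in the lists below are to be read against these 5535 of 8356. A ratio of 2-fold or more was reached upward by 257 genes (3.08%) and downward by 19 (0.227%). In the core gate it was 169 genes upward (2.08% of 8140) and 31 downward (0.381%). Of the 257 genes that were higher in the gate, 160 (62.3%) were also among the 169 of the core gate (94.7% of those). Of the 19 lower genes, 12 (63.2%) were among the 31 of the core gate (38.7%). Core cells are themselves gated cells, so much of this overlap is built in. They held 6804898 of the 8908471 gated UMIs with PBS and 13225324 of 19713902 with anti-PD-1.

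**Figure D2:**
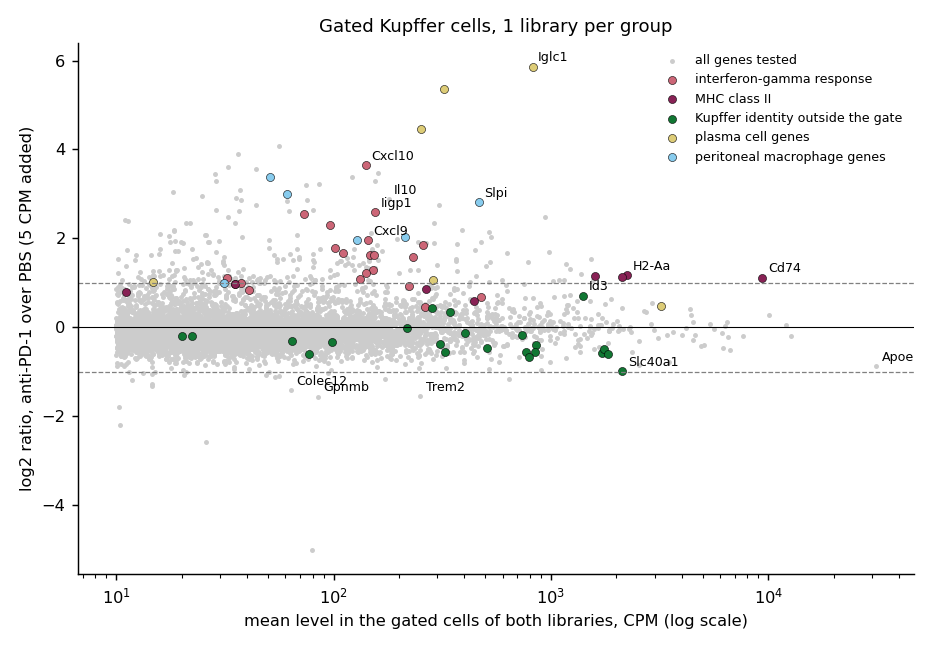
Log2 ratio of anti-PD-1 over PBS in the gated cells (y axis, 5 CPM added) against the mean level of both libraries in CPM (x axis, log scale). Each grey point is 1 of 8356 genes, coloured points are genes of the named lists, and dashed lines mark 2-fold. The interferon-γ and MHC class II lists lie above 0, the highest ratios are immunoglobulin genes, and the point at −5.00 is *Xist*.

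Genes that keep or mark Kupffer cell identity without being part of the gate were mostly lower with anti-PD-1. Of 22 such genes, 19 were lower and 3 higher with anti-PD-1 in the gate, none by 2-fold, with a median of −0.38 (−0.43 to −0.33 by the medians of the genes' counting bounds). In the core gate the median was −0.19, near the −0.13 of all genes there, and in core cells with a Y-linked UMI −0.15. The core gate keeps cells with many Kupffer cell markers, so its median is not independent of that choice, and its cells still had medians of 20 and 17 identity UMIs after thinning to 1000 UMIs. In gated cells with 4 to 6 markers it was −0.90. *Nr1h3*, the gene of the nuclear receptor LXRα, which maintains Kupffer cell identity, had a ratio of −0.12 in the gate and 0.08 in the core gate. *Spic*, a transcription factor gene of heme-handling macrophages, had −0.02 and 0.20. *Id3*, a regulator required for Kupffer cell development, went the other way, with 1067 CPM (1046 to 1089) and 1753 CPM (1735 to 1772), a ratio of 0.71 (0.68 to 0.75) and of 0.98 (0.94 to 1.02) in the core gate, but of −0.21 in gated cells with 4 to 6 markers.

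*Slc40a1*, the gene of the iron exporter ferroportin, had the lowest ratio of the identity list. It was at 2834 CPM (2799 to 2869) with PBS and 1431 CPM (1414 to 1448) with anti-PD-1, a ratio of −0.98 (−1.01 to −0.96), and at 3327 and 1972 CPM in the core gate (−0.75, −0.78 to −0.73). After thinning to 1000 UMIs, 90.7% of PBS and 79.2% of anti-PD-1 core cells held a *Slc40a1* UMI. The iron and heme list as a whole was shifted less, with 12 of 14 genes lower and a median of −0.22, and none of the 14 reached 2-fold. *Trf*, the transferrin gene, was at 1182 and 611 CPM (−0.95), and *Hmox1*, the heme oxygenase gene, at 2220 and 1460 CPM (−0.60). The ferritin genes *Ftl1* and *Fth1* had ratios of −0.19 and −0.12.

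Interferon-γ response genes were higher throughout. All 21 measured genes were higher with anti-PD-1 in the gate, 15 of them by 2-fold or more against 3.08% of all genes, with a median of 1.58 (1.49 to 1.67). In the core gate 16 of the 21 reached 2-fold, and the median was 1.31. In core cells with a Y-linked UMI the median was 1.70. In macrophages without a *Clec4f* UMI it was 1.28, and in all kept cells outside the gate 0.99. Among the transcription factors of the pathway, *Irf1* was at 109 CPM (102 to 116) and 405 CPM (396 to 414), a ratio of 1.84. *Irf8*, which macrophages use without interferon too, had 0.45, the smallest ratio of the list.

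Among the targets, *Cxcl10* (chromosome 5, 92346638 to 92348889, reverse strand), which codes for a ligand of CXCR3, a chemokine receptor of T cells, differed most. It had 148 UMIs or 16.6 CPM (14.0 to 19.5) with PBS and 5224 UMIs or 265 CPM (258 to 272) with anti-PD-1, a ratio of 3.64 (3.46 to 3.83). The core gate gave 15.6 and 254 CPM, a ratio of 3.65. After thinning, 9 of 664 PBS core cells (1.36%, 0.622% to 2.56%) and 209 of 1183 anti-PD-1 core cells (17.7%, 15.5% to 19.96%) held a *Cxcl10* UMI, and without thinning 7.67% and 50.4%. In T cells, as a background, the thinned shares were 0.883% and 4.41%, also higher with anti-PD-1 and below the share of the anti-PD-1 core cells.

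*Cxcl9*, the gene of another CXCR3 ligand, rested on few cells with PBS. It was at 55.8 CPM (51.0 to 60.9) and 233 CPM (226 to 239), a ratio of 1.97, but the 10 PBS cells with most UMIs held 80.1% of them. The PBS level was 76.7 CPM in core cells with *Xist* and 4.03 CPM in core cells with a Y-linked UMI. These cells come from different animals, so sex and animal cannot be told apart. The 4.03 CPM came from 124 cells and lies below the 5 CPM added to both levels. On which side the few cells with most UMIs fell was not examined. Against the 4.03 CPM, anti-PD-1 core cells with a Y-linked UMI had 164 CPM, a ratio of 4.22. *Iigp1*, an immunity GTPase gene, was at 40.5 CPM (36.5 to 44.9) and 270 CPM (263 to 277), a ratio of 2.59. Its levels in PBS core cells with *Xist* and with a Y-linked UMI were 53.6 and 16.9 CPM. Over the whole list, PBS core cells with a Y-linked UMI differed from those with *Xist* by a median of −0.11.

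*Gbp5*, a guanylate-binding protein gene, was at 18.0 CPM (15.3 to 21.0) and 129 CPM (124 to 134), a ratio of 2.54. *Igtp*, another immunity GTPase gene, was at 43.0 and 160 CPM, a ratio of 1.78. *Cd274*, the gene of PD-L1, the ligand of the receptor that the antibody blocks, was at 50.4 CPM (45.8 to 55.3) and 171 CPM (166 to 177), a ratio of 1.67 (1.54 to 1.80) and of 1.66 in the core gate. After thinning, 6.17% (4.47% to 8.28%) of PBS and 16.3% (14.3% to 18.5%) of anti-PD-1 core cells held a *Cd274* UMI, against 2.76% and 5.04% of T cells. Whether the *Cd274* UMIs of T cells were background or their own transcripts was not tested. Type I interferon genes moved with the list. All 17 measured were higher, 9 by 2-fold or more, with a median of 1.01 in the gate and 0.88 in the core gate. The median was larger outside the gate, at 1.53 in macrophages without a *Clec4f* UMI and 1.52 in all kept cells outside the gate. *Isg15*, a ubiquitin-like modifier gene, had the largest gate ratio of the type I genes, 2.12.

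The upstream sequences of 3 of these genes are shown so that the motif letters counted over the list can be seen in place. They are the 200 bases before the start site in RefSeq on GRCm38, 5′ to 3′ on the strand of the gene. Capitals mark TTCNNNGAA, the GAS motif of interferon-γ target genes, and GAAANNGAA or its reverse complement, a core of the ISRE motif of IRF factors. The windows are chr3:142496734-142496933 for *Gbp5*, chr11:58199356-58199555 for *Igtp* and chr11:53769814-53770013 for *Irf1*, all on the forward strand.
Gbp5: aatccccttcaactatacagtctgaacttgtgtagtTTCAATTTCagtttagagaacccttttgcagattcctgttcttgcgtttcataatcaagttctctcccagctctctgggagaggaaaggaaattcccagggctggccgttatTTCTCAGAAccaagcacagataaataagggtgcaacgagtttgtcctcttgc
Igtp: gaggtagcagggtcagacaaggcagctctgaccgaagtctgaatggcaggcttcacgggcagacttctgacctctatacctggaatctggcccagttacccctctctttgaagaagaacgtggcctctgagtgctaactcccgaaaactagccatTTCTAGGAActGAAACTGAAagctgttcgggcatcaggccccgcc
Irf1: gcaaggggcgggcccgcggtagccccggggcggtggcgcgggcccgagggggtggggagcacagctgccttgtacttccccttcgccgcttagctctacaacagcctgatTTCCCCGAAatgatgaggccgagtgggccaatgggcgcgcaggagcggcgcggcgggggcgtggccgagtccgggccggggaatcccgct
*Gbp5* has GAS letters 52 to 44 bases before the start and ISRE letters 164 to 156 bases before it. *Igtp* has both close together, GAS at 45 to 37 and ISRE at 34 to 26 bases. *Irf1* has GAS alone, at 90 to 82 bases. All 3 shown carry GAS letters, unlike most promoters of the list. *Cxcl10* and *Cxcl9*, not shown, have ISRE but no GAS letters in the window counted next. In the 300 bases around the start (250 before and 50 after), searched on both strands, GAS letters were found in 6 of 18 promoters of 15 listed genes (33.3%) and in 8.30% of all 32851 promoters. ISRE letters were found in 10 of the 18 (55.6%) and in 8.56% of all. AP-1 letters (TGANTCA), which belong to another family of factors, were found in 4 of the 18 (22.2%) and in 7.81% of all. Over the 212 promoters of genes 2-fold or more higher in the gate, the shares were 14.2% for GAS, 18.9% for ISRE and 15.1% for AP-1, against 6.85%, 7.71% and 5.19% over the 8624 promoters of all genes measured in the gate. The list was chosen as interferon-γ targets. Some genes have more than 1 promoter in the table, and a match of letters is not a bound site.

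MHC class II genes, which present peptides to CD4 T cells, were higher with anti-PD-1 in Kupffer cells. In macrophages without a *Clec4f* UMI 7 of 8 were lower. All 8 measured were higher in the gate, 4 by 2-fold or more, with a median of 1.05 (0.95 to 1.15). In the core gate 5 of 8 reached 2-fold and the median was 1.20. *H2-Aa*, an α chain gene, was at 1374 CPM (1350 to 1398) and 3108 CPM (3083 to 3133), a ratio of 1.17 (1.15 to 1.20), and in the core gate at 1087 and 2786 CPM, a ratio of 1.35 (1.32 to 1.39). *Cd74*, the invariant chain gene, was at 5924 CPM (5874 to 5975) and 12882 CPM (12832 to 12932), a ratio of 1.12. *Ciita*, which codes for the transactivator of the class II genes and is also on the interferon-γ list, had 196 UMIs (19.03 to 25.3 CPM) and 956 UMIs (45.5 to 51.7 CPM), a ratio of 0.99 and of 1.18 in the core gate. Core cells with a Y-linked UMI gave ratios of 1.56 for *H2-Aa* and 1.32 for *Cd74*. After thinning, 52.1% of PBS and 79.9% of anti-PD-1 core cells held an *H2-Aa* UMI, and 89.6% and 98.1% a *Cd74* UMI. The background in T cells was higher with anti-PD-1 too, with 12.8% and 26.4% for *H2-Aa* and 38.4% and 61.5% for *Cd74*, whose T cell level was 738 and 1838 CPM. B cells, which make these transcripts themselves, held a *Cd74* UMI in 98.9% and 99.8% of cells. Dendritic cell genes, from another cell type rich in class II, summed to 10.8 and 53.3 CPM in the gate and 8.67 and 19.7 CPM in the core gate, and 1.74% and 7.05% of gated cells held at least 2 of their UMIs. The part of such RNA in the class II ratios was not tested. The ratios of *H2-Aa* and *Cd74* were below 2-fold with wider cell limits of at least 200 genes and up to 20% mitochondrial UMIs (0.90 and 0.91) and in gated cells with 4 to 6 markers (0.71 and 0.77).

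Cells with at least 3 C1q UMIs and no *Clec4f* UMI, 4038 with PBS and 2846 with anti-PD-1, are called other macrophages here. No further macrophage gene was required of them, so cells of other types that carry C1q RNA can be among them. There the class II median was −0.27, *H2-Aa* was at 4703 and 3846 CPM (−0.29, −0.30 to −0.28), and *Ciita* had −0.29. The difference of the ratios between the populations was not tested. These cells had medians of 6851 and 3883 UMIs per cell. Neutrophil genes summed to 860 and 6155 CPM in them, against 465 and 1457 CPM in the gate and 302 and 796 CPM in the core gate. T cell genes summed to 254 and 1101 CPM in them, and B cell genes to 1698 and 2278 CPM. The part of these shifts in the class II ratio was not tested. Cells with C1q and a *Clec4f* UMI but fewer than 4 markers were in neither population. Among them *H2-Aa* was lower with anti-PD-1 at 1 marker (5099 and 4136 CPM). It was higher at 2 markers (2962 and 4110 CPM) and at 3 (2859 and 4090 CPM). How far leaving these cells out shaped the class II ratio of other macrophages was not tested. The class II genes stood at a higher level in other macrophages than in Kupffer cells in both libraries, with a sum of 29914 and 26412 CPM against 8449 and 20083 CPM in the core gate. MHC class I genes were higher in both populations, with 13 of 13 above 0 and a median of 0.69 in the gate, and 0.78 in other macrophages. *B2m*, the shared light chain gene, had 0.42 and *H2-T23* 0.81 in the gate.

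**Figure D3:**
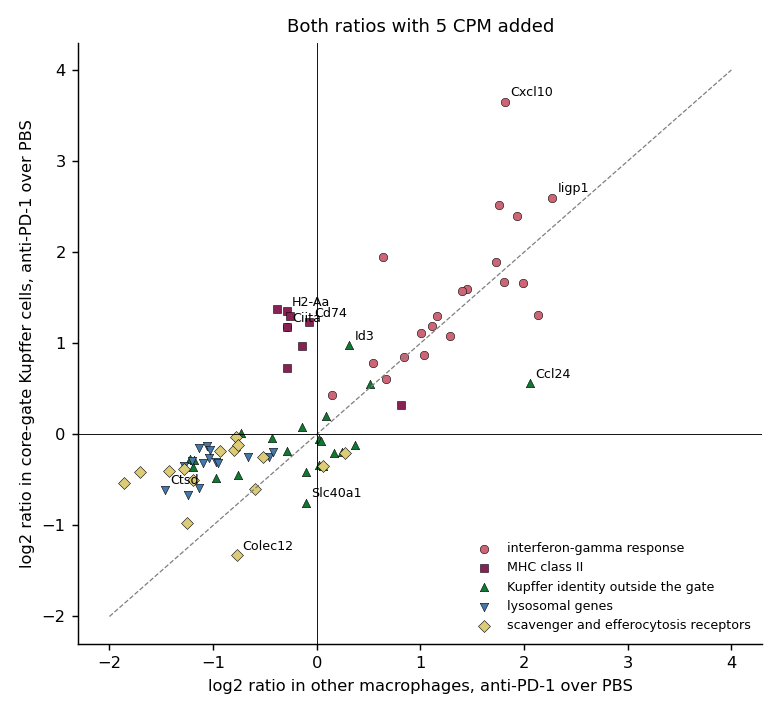
Log2 ratios of anti-PD-1 over PBS in core-gate Kupffer cells (y axis) and in macrophages without a *Clec4f* UMI (x axis), 5 CPM added, for genes of 5 lists. The dashed line marks equal ratios. MHC class II genes other than *H2-Oa* lie above 0 in Kupffer cells and below 0 in other macrophages, while interferon-γ genes other than *Ciita* are above 0 in both.

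The distributions over single core cells lay higher with anti-PD-1 for the interferon-γ and MHC class II lists. In cells thinned to 1000 UMIs, the interferon-γ list had a median of 1 UMI per PBS core cell (quartiles 1 and 3) and of 3 per anti-PD-1 core cell (2 and 7). More than 4 UMIs, the PBS 95th percentile, were held by 4.82% of PBS and 39.2% of anti-PD-1 core cells. The 5th percentile was 0 UMIs in both groups and the 95th 4 and 12, so the groups differed mainly in the upper part. The class II list had medians of 6 (quartiles 3 and 11) and 17 (9 and 28) UMIs. The groups overlapped in both lists. Anti-PD-1 core cells with at least 7 interferon-γ UMIs (306 cells) had 26129 CPM of class II transcripts and those with none (101 cells) 14517 CPM. The 6 PBS core cells with at least 7 had 10653 CPM. None means none among the 1000 UMIs drawn, and the 101 cells had a median of 10901 UMIs. *Ciita* is on both lists. The part of background class II RNA, higher with anti-PD-1 in T cells, was not tested. The same 306 cells had 4331 CPM of *Clec4f* and 15222 CPM of identity genes, against 6381 and 18141 CPM in the 101. These bins divide cells of 1 library and describe those cells only.

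**Figure D4:**
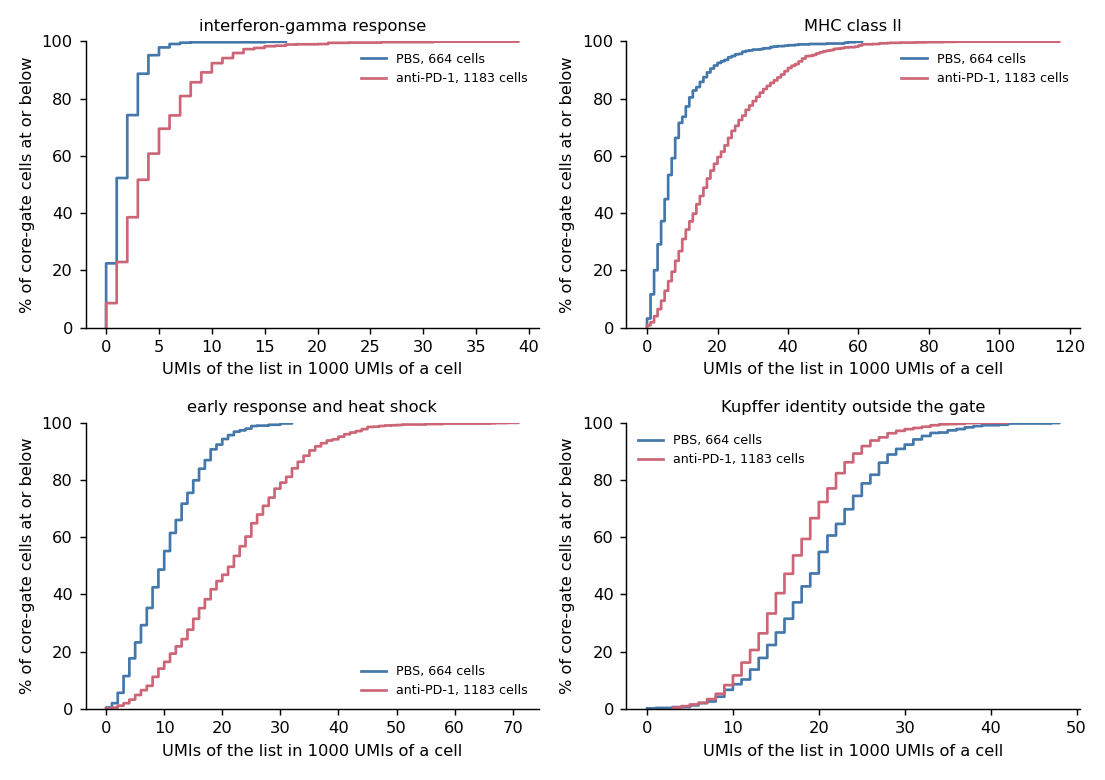
Cumulative share of core-gate cells (y axis, percent) by the number of UMIs of a list among 1000 UMIs drawn from each cell (x axis), for 664 PBS (blue) and 1183 anti-PD-1 cells (red). The anti-PD-1 curves lie to the right for the interferon-γ, MHC class II and early response lists and to the left for the identity list.

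Chemokine and cytokine genes were higher as well. Of 17 chemokine genes measured, 14 were higher and 10 by 2-fold or more, with a median of 1.68 in the gate and 1.17 in the core gate. The list was also higher in other macrophages (1.41) and in all kept cells outside the gate (1.16). *Cxcl2*, a neutrophil attractant gene, was at 283 CPM (272 to 294) and 1600 CPM (1582 to 1618), a ratio of 2.48. *Cxcl1*, of the same function, was at 22.6 and 299 CPM (3.46). *Ccl6* (−0.15) and *Cxcl16* (−0.13) lay close to the median of all genes, and *Cxcl14* had −0.26. *Ccl6* was at 0.35 in gated cells with 4 to 6 markers. *Ccl12* had 3.22 in the gate and 2.28 in the core gate.

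Of 17 inflammatory mediators measured, 15 were higher and 11 by 2-fold or more, with a median of 1.49 in the gate and 1.40 in the core gate. The list was as high in other macrophages (1.54) and in all kept cells outside the gate (1.47). *Il10*, the gene of an inhibitory cytokine, had the highest ratio of the list in the core gate. It was at 39.1 CPM (35.1 to 43.4) and 319 CPM (311 to 327) in the gate, a ratio of 2.88, and at 42.9 and 421 CPM in the core gate, a ratio of 3.15 (3.00 to 3.31). Other macrophages had 8.18 and 55.6 CPM. After thinning, 24 of 664 PBS core cells (3.61%, 2.33% to 5.33%) and 263 of 1183 anti-PD-1 core cells (22.2%, 19.9% to 24.7%) held an *Il10* UMI, against 0.607% and 3.24% of T cells. Whether the *Il10* UMIs of T cells were background or their own transcripts was not tested. *Il6* was at 14.4 CPM (11.99 to 17.1) and 136 CPM (131 to 142), a ratio of 2.87. *Il1b* was at 204 and 854 CPM (2.04). *Tnfaip3*, which codes for a brake on NF-κB, had 2.75 and 2.91 in the core gate. *Il18* and *Tgfb1* were near level, with −0.10 and −0.12. *Saa3*, an acute phase gene, had 0.19 in the gate, where the 10 PBS cells with most UMIs held 98.9% of them, and 1.75 in the core gate, with 4.11 and 25.6 CPM.

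Checkpoint and costimulation ligands showed no common direction. Of 11 measured, 6 were higher and 5 lower, with a median of 0.02. Besides *Cd274*, *Tnfsf9*, the gene of the 4-1BB ligand, reached 2-fold, with 5.28 and 70.0 CPM (2.87) and a ratio of 1.83 in the core gate. *Vsir*, the gene of the inhibitory ligand VISTA, was at 187 CPM (178 to 196) and 122 CPM (117 to 127), a ratio of −0.60. *Cd80* and *Cd86*, the CD28 ligand genes, had −0.04 and −0.20. *Pdcd1*, the gene of PD-1 itself, was below the level filter at 2.58 and 7.46 CPM. *Yap1* and *Wwtr1*, the shRNA targets, had 1.35 and 0.812 CPM, and 1.91 and 0.964 CPM, too low in these cells to check the knockdown, which both groups share.

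Genes of uptake and lipid handling were lower with anti-PD-1. All 15 scavenger and efferocytosis receptor genes were lower in the gate, with a median of −0.57 and of −0.38 in the core gate, and 1 reached 2-fold. That was *Colec12*, a scavenger receptor gene, at 94.97 CPM (88.7 to 102) and 32.5 CPM (30.05 to 35.1), a ratio of −1.41 and of −1.32 in the core gate, and of −0.88, below 2-fold, without cells holding other markers. *Mertk*, which codes for a receptor for dying cells, had −0.57, and *Cd36* −0.11. All 16 lysosomal genes were lower, none by 2-fold, with a median of −0.38, −0.27 in the core gate and −1.05 in other macrophages. *Ctsd*, a cathepsin gene, was at 4410.4 and 2590 CPM (−0.77). Of 14 lipid and LXR target genes 13 were lower, with a median of −0.41. *Apoe*, the apolipoprotein gene, was at 40563 CPM (40430 to 40695) and 22138 CPM (22072 to 22204), a ratio of −0.87, and *Abca1*, a cholesterol exporter gene, at 432 and 226 CPM (−0.92).

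The lowest ratios in the gate among genes with a mean of at least 50 CPM, sex-linked genes aside, were those of a pair of lipid-associated macrophage genes. *Trem2*, a lipid-sensing receptor gene, was at 376 CPM (363 to 389) with PBS and 125 CPM (120.4 to 130.4) with anti-PD-1, a ratio of −1.55 (−1.62 to −1.47), and at 314 and 88.5 CPM in the core gate (−1.77). After thinning, 24.2% (21.0% to 27.7%) of PBS and 8.20% (6.70% to 9.91%) of anti-PD-1 core cells held a *Trem2* UMI. In other macrophages it was at 613 and 165 CPM (−1.86). *Gpnmb*, which codes for a lysosomal glycoprotein, was at 129 CPM (122 to 137) and 40.6 CPM (37.8 to 43.5), a ratio of −1.56. Its PBS value rested on few cells, since 10 cells held 59.1% of the UMIs, and the ratio was −1.04 in the core gate, −0.84 without cells holding other markers and −0.08 in gated cells with a Y-linked UMI. The list of 8 had a median of −0.35, with 7 lower, and of −0.85 in the core gate. It was 0.04 in gated cells with a Y-linked UMI, where the direction did not hold, and −0.37 in core cells with one.

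**Figure D5:**
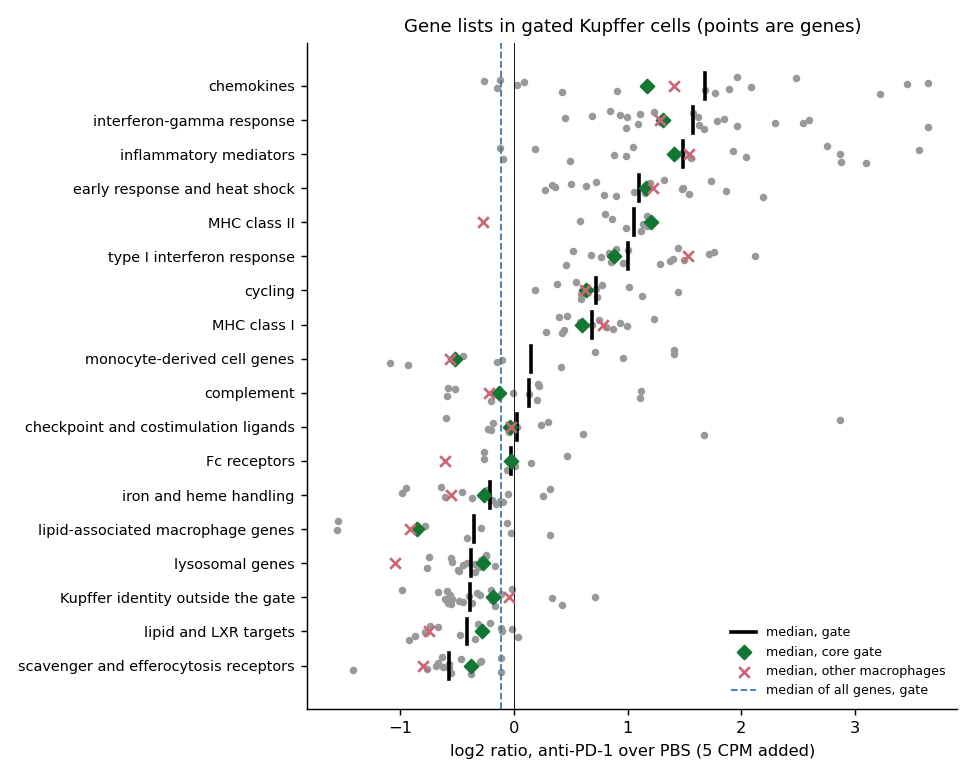
Log2 ratio of anti-PD-1 over PBS (x axis, 5 CPM added) for each measured gene (grey points) of 18 lists in the gated cells. Black bars are list medians in the gate, diamonds in the core gate and crosses in macrophages without *Clec4f*, and the dashed line is the median of all genes in the gate. The MHC class II median lies on opposite sides of 0 in gated Kupffer cells (1.05) and other macrophages (−0.27). So do the medians of complement (0.13 and −0.22), monocyte-derived cell (0.15 and −0.56) and checkpoint and costimulation genes (0.02 and −0.02). In the core gate the complement, monocyte-derived cell and checkpoint medians (−0.13, −0.52 and −0.03) were below 0, as in other macrophages.

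Complement and Fc receptor genes were close to level. Of 11 complement genes 6 were higher, with a median of 0.13 and of −0.13 in the core gate, and *C3* and *Cfb* reached 2-fold, with 1.11 and 1.12. *C3* was below 2-fold in the core gate (0.93), with the gate read after thinning (0.89), with cells weighted equally (0.91) and with 20 CPM added (0.93), and *Cfb* with wider cell limits (0.94) and with 20 CPM added (0.85). The 6 Fc receptor genes ran from −0.26 to 0.47, which was *Fcgr4*. *Fcgr2b*, the inhibitory receptor gene, had 0.15 in the gate and −1.07 in the core gate. Monocyte-derived cell genes divided, with 5 higher and 5 lower in the gate and a median of 0.15 that became −0.52 in the core gate. Over the genes that passed the level filter in the core gate itself, the core median was −0.24. *Cx3cr1*, a fractalkine receptor gene, was at 78.2 and 34.1 CPM (−1.09), but below 2-fold in gated cells with a Y-linked UMI (−0.71), in a looser gate of 3 markers (−0.91), without cells holding other markers (−0.84), with 20 CPM added (−0.86) and with median-ratio scaling (−0.97). *Ly6c2*, a marker gene of classical monocytes, was at 74.3 and 149 CPM in the gate (0.96) and 30.3 and 34.4 CPM in the core gate (0.16), and its direction turned in gated cells with a Y-linked UMI (−0.83).

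Early response and heat shock genes, which are known to be raised by dissociation of tissue, were higher for 18 of 18 genes, 10 by 2-fold or more, with a median of 1.10 in the gate and 1.17 in the core gate. *Atf3* was at 137 CPM (129 to 145) and 643 CPM (631 to 654), a ratio of 2.19, and *Hspa1a* at 412 and 1158 CPM (1.48). The list was as high in other macrophages, with 1.23, and in all kept cells outside the gate, with 1.17. Its part in the chemokine and cytokine ratios was not tested.

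Cycling genes were higher for 11 of 11, 3 by 2-fold or more, with a median of 0.72. In PBS core cells they had a median of −1.18 for cells with a Y-linked UMI over cells with *Xist*. Sex and animal cannot be told apart in this ratio. *Mki67*, a proliferation marker gene, was at 46.8 and 14.5 CPM in PBS core cells with *Xist* and with a Y-linked UMI, and at 51.4 CPM in anti-PD-1 core cells with a Y-linked UMI. After thinning, 2.86% (1.73% to 4.43%) of PBS and 2.79% (1.93% to 3.90%) of anti-PD-1 core cells held a *Mki67* UMI. Over all core cells these shares did not differ beyond counting error. In the gate the shares were 3.22% (2.20% to 4.54%) and 5.12% (4.18% to 6.19%). The cycling median was 1.76 in core cells with a Y-linked UMI and 0.64 over all core cells.

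Of the genes with at least 50 CPM, the 12 highest ratios in the gate were those of *Iglc1* (5.86), *Iglc2* (5.35), *Ighg2b* (4.45), *Hbb-bs* (4.08), *Cxcl10*, *Cxcl1*, *Thbs1* (3.38), *Serpinb2* (3.37), *Serpina3g* (3.29), *Ccl12*, *Serpina3f* (3.20) and *Alox15* (3.00). Most UMIs of the immunoglobulin and hemoglobin genes among them came from few cells. For *Hbb-bs*, a hemoglobin gene, 89.7% of the anti-PD-1 UMIs lay in 10 cells, and the ratio was 1.48 in the core gate and 3.92 in other macrophages. At least 2 erythroid UMIs were held by 4.302% of gated and 4.48% of core cells with anti-PD-1. *Iglc1*, a lambda light chain gene, had 206 UMIs with PBS and 32051 with anti-PD-1, and 96.9% of the latter lay in 10 cells. In the core gate it was at 18.7 and 57.2 CPM, and *Ighg2b* had a ratio of 0.44. *Serpina3g* and *Serpina3f*, protease inhibitor genes that interferon induces, were as high in the core gate, with 3.601 and 3.504. *Thbs1*, a matrix glycoprotein gene, had 1.78 in the core gate. *Serpinb2* is on the list of peritoneal macrophage genes given below. Its ratio was 1.98 in the core gate and 3.53 in other macrophages. It had 0 UMIs in PBS core cells, for which the exact Poisson upper bound is 0.542 CPM, and 14.7 CPM in anti-PD-1 ones. Whether its UMIs came from peritoneal macrophages was not tested. Without cells holding other markers, *Thbs1* (0.94) and *Alox15* (0.17) were below 2-fold, and with the gate read after thinning *Serpinb2* (0.92) and *Alox15* (0.46) were.

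The 12 lowest were *Gpnmb*, *Trem2*, *Colec12*, *AC149090.1* (−1.17), *Cmss1* (−1.15), *Rnase4* (−1.10), *Cx3cr1*, *Chp2* (−1.02), *Abca9* (−0.99), *Slc40a1*, *Neat1* (−0.96) and *Trf*. All 12 were also below 0 in the core gate, where they ran from −1.77 to −0.75, and in other macrophages, where *Slc40a1* (−0.11) and *Chp2* (−0.15) were nearest to 0. Besides *Gpnmb*, *Colec12* and *Cx3cr1*, described above, 4 of those past 2-fold went below it in some settings. *Cmss1* was at −0.31 without cells holding other markers and −0.84 with cells weighted equally, *Rnase4* between −0.99 and −0.80 in 4 settings, the last in gated cells with a Y-linked UMI, *AC149090.1* between −0.99 and −0.96 in 3, and *Chp2* between −0.90 and −0.72 in 6. *Chp2*, a calcineurin-like calcium-binding protein gene, was at 128 and 60.7 CPM in Kupffer cells and at 2.95 and 2.16 CPM in other macrophages, and its interval there (−0.33 to 0.04) held 0.

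Markers of other cells were present in the gate and moved with the group. Neutrophil genes were higher for 6 of 6, with a median of 1.20. *S100a8* was at 196 and 760.4 CPM in the gate and 116 and 396 CPM in the core gate, and 17.2% and 60.4% of T cells held an *S100a8* UMI although T cells should lack it. At least 2 UMIs of the neutrophil list were held by 45.6% of PBS and 90.6% of anti-PD-1 core cells. T cell genes summed to 109 and 240.1 CPM in the gate and 62.9 and 82.9 CPM in the core gate, and B cell genes to 397 and 839 CPM and 114 and 152 CPM. Erythroid genes summed to 4.27 and 248 CPM in the gate and 4.56 and 30.3 CPM in the core gate, and pancreatic acinar genes to 0.898 and 127 CPM in the gate and 1.03 and 161 CPM in the core gate. Fibroblast genes went from 98.9 to 215 CPM in the gate and from 78.0 to 46.3 CPM in the core gate. *Stab2* and *Clec4g*, endothelial genes, were lower, with −0.55 and −1.02, and *Clec4g* was at 0.27 in gated cells with a Y-linked UMI. Platelet genes summed to 248.9 and 159 CPM in the gate and 208 and 85.2 CPM in the core gate. At least 2 UMIs of the platelet list were held by 38.5% and 15.9% of core cells. Of its 4 genes only *Pf4* passed the level filter, with ratios of −0.65 in the gate and −1.25 in the core gate. In all kept cells outside the gate the platelet sum was 149 and 94.1 CPM, lower than in the gate in both libraries. Whether the *Pf4* UMIs came from platelets or from the gated cells themselves was not tested. The platelet list also counts among the other markers for which cells were left out. Hepatocyte genes had a median of −0.38 over 2 measured and tumor and biliary genes of −0.32 over 4. The peritoneal macrophage and plasma cell lists, chosen after their values were seen, had medians of 2.43 and 2.76 in the gate and of 1.97 and 0.41 in the core gate. No gene of the NK cell list reached the level filter. The part of these RNAs in the list medians was not tested.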

How the data were processed

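The authors deposited raw UMI counts per gene and barcode for 2 Singleron GEXSCOPE libraries, 1 per group, made with Singleron's software on mm10. The aligner, its version and the annotation are not given in the sources used here, and Seurat 4.3 is named in the submitters' processing notes. The deposited counts were read as sparse matrices of 32589 genes. Gated UMIs were summed per library and scaled to CPM (8908471 and 19713902 UMIs). Shares carry exact binomial and CPM exact Poisson 95% intervals, which treat UMIs as independent and cover counting error only. Ratios used 5 CPM as pseudocount and genes with a mean of at least 10 CPM, and 2-fold was the call. Shares of cells with a UMI were read after thinning cells to 1000 UMIs, leaving out shallower cells. Doublets were not removed in the values given, and an alternative left out the 5% of cells with the highest score against simulated doublets. With 1 library per group no test was run.

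Named genes were the 12 highest and 12 lowest ratios among genes with a mean of at least 50 CPM (without predicted, mitochondrial, ribosomal and sex-linked genes) and members of 19 gene lists and 12 lists of other cell types. The gate and lists were chosen with earlier results of these data known, and the core gate and the peritoneal macrophage and plasma cell lists after the values were seen. Of the gene identifiers, 99.6% were found in GENCODE vM21, the source of the coordinates, and promoters came from RefSeq on GRCm38.p6. Some items withheld for evaluation are not reported here. Alternatives covered cell limits, the gate, doublets, sex, scaling, pseudocount and filter. The scripts were tested on simulated data and used Python 3.11.15, numpy 2.4.6, scipy 1.17.1, pandas 2.3.3, scikit-learn 1.9.0 and matplotlib 3.10.9.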

Additional observations from a re-analysis of the deposited data

Results flagged for a closer look

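These genes reached 2-fold in the gated Kupffer cells while the counting interval of macrophages without *Clec4f* lay on the other side of 0. The difference between the populations was not tested. Over all genes the median in macrophages without *Clec4f* was −0.07, near the values of *Cd74* and *Col3a1* there (both −0.08). Among MHC class II genes, *Cd74* had a log2 ratio of anti-PD-1 over PBS of 1.12 in the gate and −0.08 in other macrophages, *H2-Aa* 1.17 and −0.29, *H2-Ab1* 1.14 and −0.26, and *H2-Eb1* 1.17 and −0.38. All 4 were below 2-fold with wider cell limits (0.88 to 0.91) and in gated cells with 4 to 6 markers (0.69 to 0.77), and all but *H2-Aa* were at 0.97 or 0.98 without an upper gene limit. All 4 were at a higher level in other macrophages than in Kupffer cells in both libraries. The immunoglobulin genes *Iglc2* (5.35 and −0.16), *Iglc3* (1.01 and −0.95) and *Igha* (1.06 and −1.99) and the collagen gene *Col3a1* (1.09 and −0.08) did the same. For *Iglc2*, 96.9% of the anti-PD-1 UMIs in the gate lay in 10 cells, and its core-gate ratio was 0.49. The core gate gave 0.37 for *Iglc3* and turned the direction of *Igha* (−3.76, with 96.6% of the anti-PD-1 UMIs of the gate in 10 cells) and of *Col3a1* (−0.75, with 81.0% in 10 cells).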

How the results depend on the processing

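No paired analysis was possible because each group had 1 library. The medians of the interferon-γ, MHC class II and Kupffer identity lists kept their sign in every alternative run. For the identity list the sign says little, since the median of all genes was itself below 0 (−0.11 in the gate, −0.13 in the core gate). Its own median was −0.13 after thinning. Among 85 genes followed by name, 49 were past 2-fold, and 4 of these turned direction in some setting. Of the 49, 24 were below 2-fold in at least 1 setting. *Fn1* (2.04) was at −0.49 with the gate read after thinning. *Igha* (1.06) was at −3.50 in the stricter gate, −0.29 after thinning, −0.34 without cells holding markers of other types, −3.76 in the core gate and −0.50 in its cells with a Y-linked UMI, and *Col3a1* (1.09) at −0.70, −0.28, −0.50, −0.75 and −0.56 in the same settings. *Clec4g* (−1.02) was at 0.27 with a Y-linked UMI and at 0 without cells holding other markers, which its own list removes. Each setting applied its own filter of 10 CPM, so a median can differ from one over the genes measured in the gate. For the monocyte-derived list in the core gate the 2 medians were −0.24 and −0.52. The cause of the changes below was not tested. The difference in share (5.92 percentage points) was 6.70 without an upper gene limit, 3.71 in the stricter and 8.69 in the looser gate, 3.26 after thinning, −0.062 without cells holding markers of other types and 2.96 in the core gate. The core gate, its cells with a Y-linked UMI and the cells with 4 to 6 markers were settings chosen after seeing the data. The 257 higher genes became 157 after thinning, 397 without cells holding other markers, 169 in the core gate, 480 with 4 to 6 markers, 155 with 20 CPM added and 137 with a filter of 50 CPM. The 19 lower genes became 33 with wider cell limits, without an upper limit and in the stricter gate, 32 in the looser gate, 585 without cells holding other markers, 53 with a Y-linked UMI, 31 in the core gate, 63 in its cells with a Y-linked UMI, 177 with 4 to 6 markers, 35 and 7 with 1 and 20 CPM added, 12 with median-ratio scaling (a shift of −0.13) and 9 with a filter of 50 CPM. The interferon-γ median (1.58) was 1.37 after thinning, 1.79 without cells holding other markers, 1.75 with a Y-linked UMI, 1.31 in the core gate, 1.70 in its cells with a Y-linked UMI, 1.44 with 20 CPM added, 1.71 with median-ratio scaling and 1.28 without a filter. The MHC class II median (1.05) was 0.89 with wider cell limits, 1.17 after thinning, 1.51 without cells holding other markers, 1.16 without high doublet scores, 1.23 with a Y-linked UMI and in the core gate, 1.32 in its cells with a Y-linked UMI, 0.69 with 4 to 6 markers and 1.18 with median-ratio scaling. The identity median (−0.38) was −0.57 with wider cell limits, −0.46 without an upper limit, −0.19 in the stricter gate, −0.50 in the looser gate and without cells holding other markers, −0.13 after thinning, −0.19 in the core gate, −0.15 in its cells with a Y-linked UMI, −0.91 with 4 to 6 markers and −0.25 with median-ratio scaling.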
